A study of Homo sapiens with 6 samples.

Results

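DEAD-box and DEAH-box proteins are the largest family of RNA helicases. They use ATP to bind RNA, pry apart short duplexes or strip proteins from RNA, and take their names from a run of amino acids in the motif that binds ATP. Members drive the folding and cutting of ribosomal RNA in the nucleolus, the rearrangements of the spliceosome, the passage of mRNA through the nuclear pore, the scanning of mRNA by ribosomes and the storage and decay of mRNA. In growing B-cell lymphoma cells the nucleolar members belong to the machinery that makes new ribosomes.

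The genes described here are those whose symbol starts with DDX or DHX followed by a number, leaving out DDX58 and DHX58, which sense viral RNA, and pseudogenes. The rule reads only the symbol, and the brightest probe set then stands for each gene. Of 18417 genes with a probe set of their own, 49 met the rule, 34 DDX and 15 DHX genes. They were sorted by textbook role into 14 genes of ribosome assembly, 12 of splicing, 11 of mRNA export, translation and decay, 2 mitochondrial, 3 of the germline, 2 induced by interferon and 5 others. DDX11, DDX39B and DDX47 shared their probe sets with other gene names and are outside this count.

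The cells were RL, an established human B-cell lymphoma line carrying t(14;18). They were either left untreated (3 arrays) or given LY317615, also known as enzastaurin, an inhibitor developed against protein kinase C beta (3 arrays). All samples are marked 48 h. The dose is written as 2.5 mM in the labels, a unit that could not be checked here, and no vehicle is named for untreated cells. Total RNA was measured on Affymetrix Gene 1.0 ST arrays, which read each transcript with a set of probes, and values below are log2 of the deposited intensity. The comparison asks which of these helicase RNAs differed between treated and untreated cells.

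In cells given LY317615, most helicase genes of ribosome assembly, splicing and mRNA export, translation and decay had less RNA. The falls were 1.16-fold to 1.95-fold among those that passed the test. Cyclic loess, a scaling that takes out intensity trends between arrays, left 11 of 14, 9 of 12 and 4 of 11 called lower. Before it, 11, 10 and 8 were called lower. Of all genes, 17.8% were lower after it and 21.4% before. The largest falls were in DDX10, DHX33, DHX8, DDX21 and DDX31. A few members went the other way: the interferon-induced DDX60 and DDX60L rose 2.58-fold and 1.91-fold, and the scanning helicase DHX29 rose 1.37-fold. DDX50 and DDX17, the close relatives of DDX21 and DDX5, rose slightly while those relatives fell. The calls of DDX50 and DDX17 ended with the array medians set equal. That of DDX5 ended when any 1 array was left out. Neither pair passed an exact permutation test of its difference (adjusted p = 0.133), which cannot go below 0.1 before adjustment. In all, 29 of 49 members were lower and 7 higher at an adjusted p of 0.05 (limma's moderated test, Benjamini-Hochberg adjustment over all genes, two-sided), and 13 were not called.

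That count has to be read against a broad response. Over all genes, 21.4% were lower and 14.2% higher, 35.7% in either direction. Setting the array medians equal changed the split over all genes from 3946 lower and 2622 higher to 4861 lower and 1523 higher, and that of the members to 35 lower and 5 higher. Brighter genes fell more often, and most helicase genes are bright: their median lay at the 85.0th percentile of untreated intensity. In the brightest 20% of genes, 20 of 27 members were lower and 2 higher, where 47.6% of all genes there were lower and 9.47% higher. In the next 20%, 8 of 13 members were lower and 3 higher, against 37% and 12.5%. In the dimmer 60%, 1 of 9 members was lower and 2 higher, against 7.49% and 16.4% of the genes there. The median log2 change was -0.38 over the members and 0.02 over all genes. Untreated and treated arrays did not overlap in 42 members, against 49.8% of all genes. A called fall of at least 0.5 on the log2 scale was seen in 11 members, against 8.73% of all genes, and 9 of these 11 belong to ribosome assembly. These values can also be set against genes of like brightness. In the brightest 20%, the median was -0.42 over the members and -0.21 over all genes there. Arrays did not overlap in 24 of 27 members and 2793 of 3684 genes, and such a fall was called in 7 and 637. In the next 20%, the medians were -0.40 and -0.14. Arrays did not overlap in 12 of 13 members and 2394 of 3683 genes, and such a fall was called in 4 and 595.

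**Figure D1:**
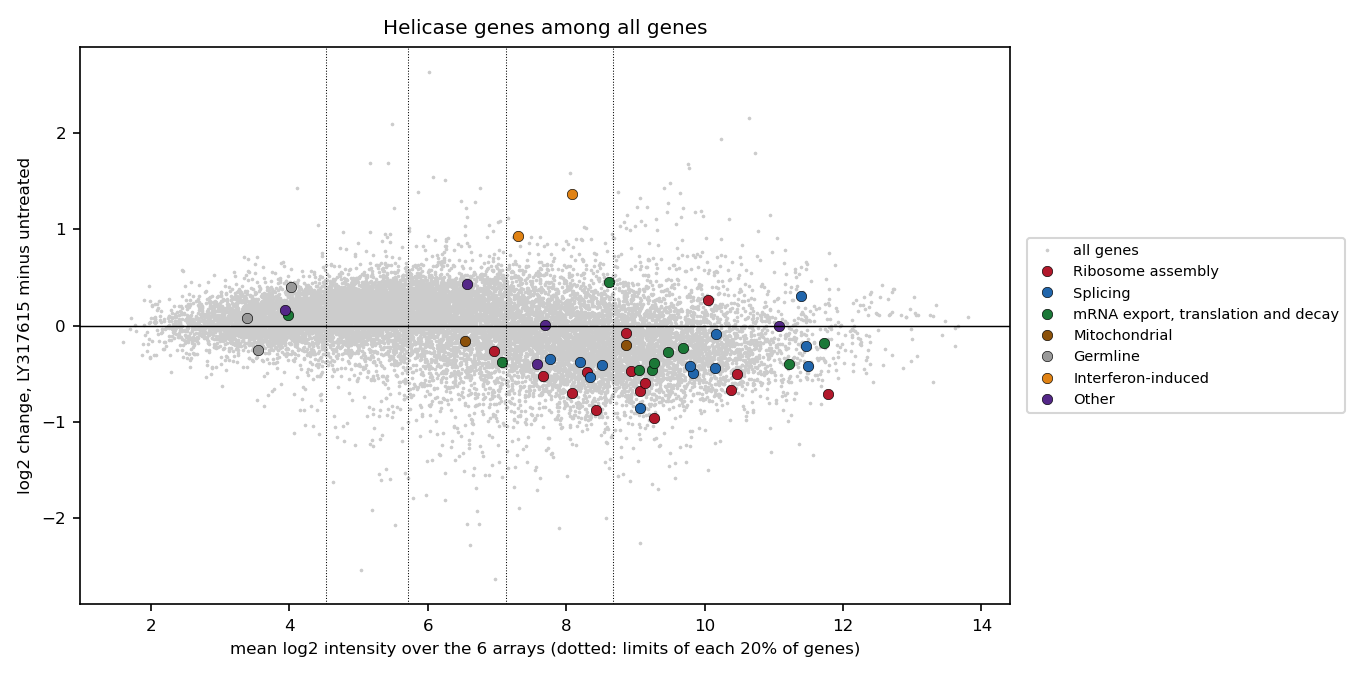
Log2 change (LY317615 minus untreated, vertical axis) against mean log2 intensity over the 6 arrays (horizontal axis); each grey point is a gene, each coloured point a helicase gene by role (DDX3Y not coloured), and dotted lines part the genes into steps of 20% by intensity. Ribosome assembly genes lie to the right of the middle and mostly below 0, DDX60 and DDX60L lie above 0 at 1.37 and 0.93, and the dim germline genes lie at the far left.

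Precision is limited by having 3 arrays a group. Separate cultures are not stated for the replicates, so the p-values reflect array-to-array spread alone, and part of that may be technical. In bulk RNA, fewer cells of a kind and less RNA per cell cannot be told apart. The median log2 intensity was 5.83 to 5.86 on the untreated and 5.91 to 5.94 on the treated arrays. Treated replicate 3 had an array weight of 0.376, against 1.04 to 1.51 on the others. It held the lowest value in 19 of the 29 members that fell, and treated replicate 2 in the other 10. Over all genes called lower, treated replicate 3 held the lowest value in 2666 of 3946. Without treated replicate 3, 27 members were lower and 7 higher, and 3505 and 2117 of all genes. In untreated cells the 7 B-cell markers measured had intensity percentiles of 87.0 to 98.9, and 16 markers of other cell types had percentiles of 8.08 to 53.5. Of those 16 markers, 6 were called higher and 0 lower. Their summed intensity was 636 to 664 on untreated and 836 to 906 on treated arrays, while that of the B-cell markers went from 10893 to 11398 down to 8594 to 9418. The markers of other cell types mostly rose, with a median log2 change of 0.30, and 3 of the 16 had a change below 0. In the dimmer 60% of genes, 16.4% were called higher. PECAM1, an endothelial and myeloid marker, rose 2.17-fold and had the largest change of its list. The B-cell markers did not move as one: CD37 rose 2.29-fold, CD79B was not called (-0.01, adjusted p = 0.911) and 5 fell. The part of either shift in the helicase results was not tested.

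**Figure D2:**
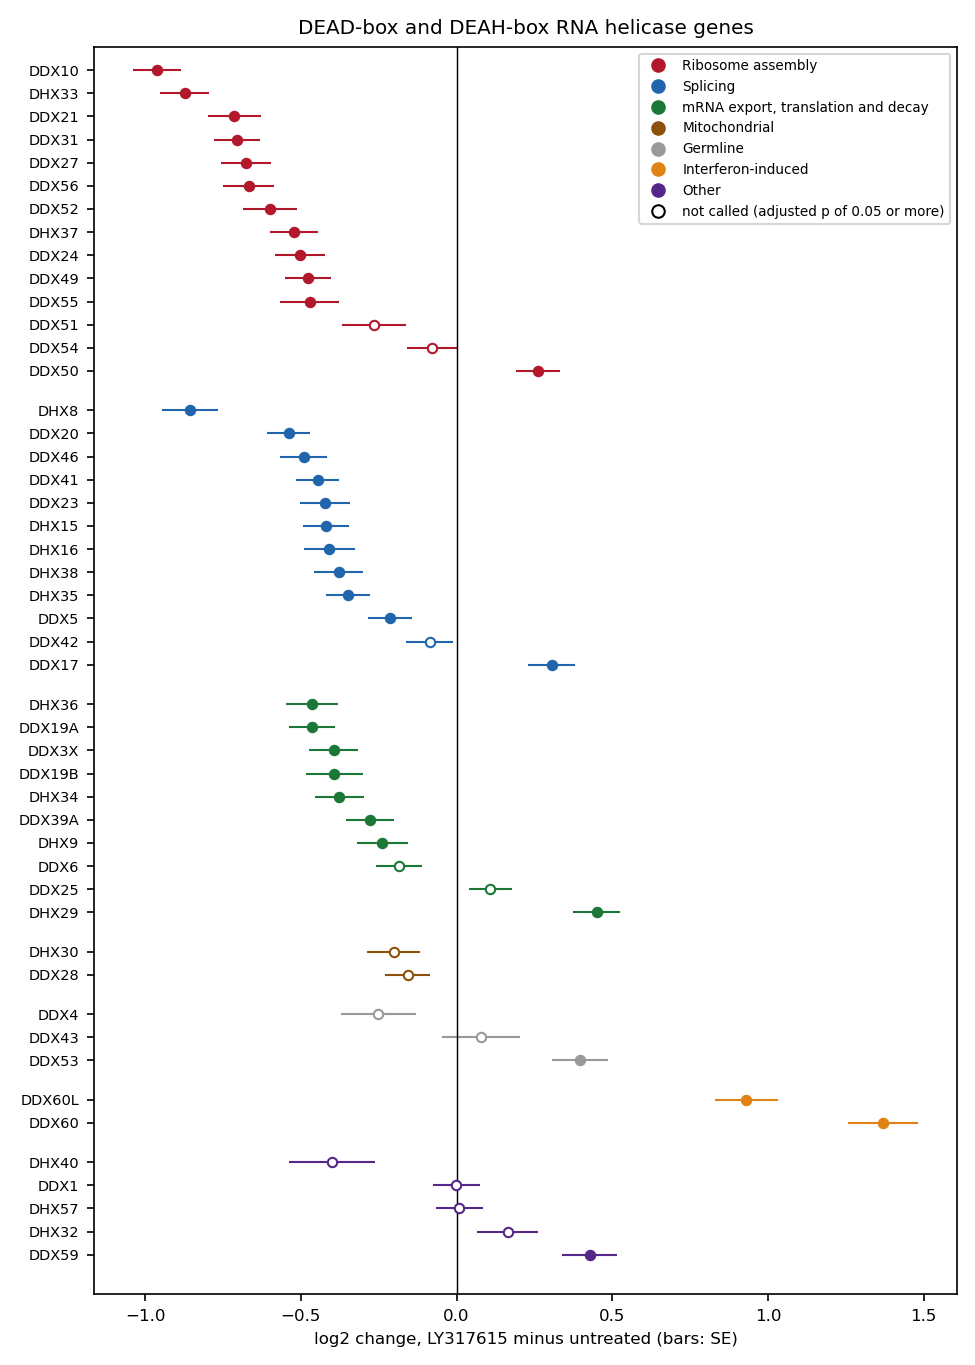
Log2 change of each helicase gene but DDX3Y (horizontal axis, LY317615 minus untreated, bars give the SE of the linear model), grouped by role. Filled points passed an adjusted p of 0.05 and open points did not. Ribosome assembly runs from -0.96 for DDX10 to 0.26 for DDX50, and the interferon-induced pair stands alone at the right.

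Among 14 ribosome assembly helicases, 11 fell and 1 rose, with a median log2 change of -0.56. Their median percentile of untreated intensity was 86.3. Of all genes in the brightest 20%, 47.6% were lower, with a median of -0.21. In the next 20% it was 37%, with a median of -0.14. The role group was not tested against these shares. DDX10, a nucleolar helicase of small-subunit rRNA processing (probe set 7943690), read 9.68, 9.78 and 9.78 in untreated cells and 8.82, 8.70 and 8.83 in treated cells. All its treated arrays lay below all its untreated arrays, a change of -0.96 ± 0.08 (SE, adjusted p = 6.79e-05). DHX33, which takes part in the transcription of ribosomal DNA, went from 8.89, 8.82 and 8.90 to 8.09, 7.98 and 7.92, a change of -0.87 ± 0.08 (SE). DDX21, which links RNA polymerase I transcription with rRNA processing, lay at the 99.6th percentile of untreated intensity. It read 12.12, 12.17 and 12.12 before and 11.47, 11.27 and 11.52 after treatment, a fall of 1.64-fold (adjusted p = 0.000382). The spread of its untreated arrays, 0.03 (SD, n = 3), was far below that fall.

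Several large-subunit helicases fell as well, while DDX51 and DDX54, given below, were not called. DDX31 went from 8.49, 8.39 and 8.42 to 7.79, 7.68 and 7.71. DDX27 went from 9.38, 9.46 and 9.39 to 8.69, 8.85 and 8.66, and DDX56 from 10.72, 10.74 and 10.70 to 10.18, 10.03 and 9.95. Their changes were -0.71 ± 0.07, -0.68 ± 0.08 and -0.67 ± 0.08 (SE), and in none of them did the groups overlap. DDX24 and DDX55, which also act on the large subunit, changed less, by -0.50 ± 0.08 and -0.47 ± 0.10. For DDX55 the untreated arrays ran from 9.05 to 9.28 and the treated arrays from 8.58 to 8.84, so its groups stood nearer to each other.

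On the small-subunit side, DDX52 changed by -0.60 ± 0.09 (SE), DHX37 by -0.52 ± 0.08 and the nucleolar DDX49 by -0.48 ± 0.07. DHX37 frees the precursor from the U3 small nucleolar RNA; it read 7.83, 7.99 and 7.96 in untreated and 7.44, 7.37 and 7.41 in treated cells. UTP14A, the protein that activates DHX37, was not called: its change was 0.16 ± 0.07 (adjusted p = 0.122).

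The exceptions were DDX51, DDX54 and DDX50. DDX51, a large-subunit factor, read 7.15, 6.86 and 7.25 in untreated cells and 6.78, 6.85 and 6.83 in treated cells. The groups touched but did not overlap, and its change of -0.27 had a 95% interval from -0.50 to -0.03 before adjustment (adjusted p = 0.0733). DDX54, another large-subunit factor, read 8.97, 8.78 and 8.99 before and 8.86, 8.82 and 8.81 after. Its groups overlapped, with a change of -0.08 and an interval from -0.26 to 0.11. DDX50 rose from 9.93, 9.94 and 9.91 to 10.25, 10.15 and 10.16, a change of 0.26 ± 0.07 (SE, adjusted p = 0.0198). That call ended with the array medians set equal (0.18, adjusted p = 0.0996), and without treated replicate 1 or any 1 untreated array (adjusted p = 0.0536 to 0.0696).

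**Figure D3:**
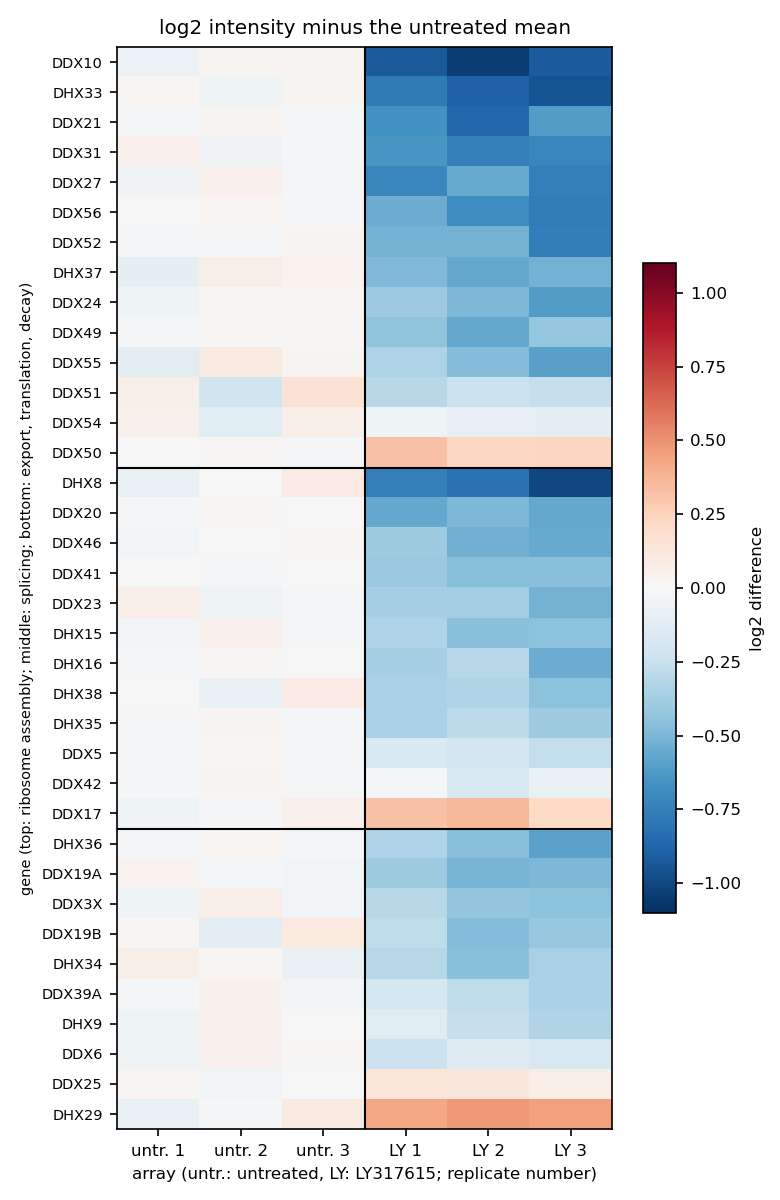
Log2 intensity on each of the 6 arrays minus the gene's untreated mean (colour), for the helicase genes of ribosome assembly (top block), splicing (middle) and mRNA export, translation and decay (bottom), ordered by change. DDX3Y is not shown. Untreated columns are near white; treated columns are mostly blue, darkest in DDX10 (mean -0.96), and red in DDX50, DDX17 and DHX29.

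Of 12 splicing helicases, 10 fell and 1 rose, with a median of -0.41 (-0.27 after cyclic loess). Cyclic loess is a scaling that takes out intensity trends between arrays. Apart from DHX8 and DDX5, the called falls lay between -0.35 and -0.54. This role group was bright, with a median percentile of 93.2. Of all genes in the brightest 20%, 47.6% were lower, with a median of -0.21. In the next 20% it was 37%, with a median of -0.14. These shares and medians of all genes were taken before cyclic loess, so the value of -0.27 has no counterpart among them. The splicing group was not tested against these shares. DHX8, which releases the finished mRNA from the spliceosome, stood out with a change of -0.86 ± 0.09 (SE, adjusted p = 0.000223). It read 9.41, 9.49 and 9.58 in untreated cells and 8.74, 8.68 and 8.49 in treated cells.

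The others are given in the order of the splicing cycle. DDX46, which acts when the branch site is first recognised, went from 10.04, 10.08 and 10.10 to 9.68, 9.54 and 9.52. DDX23, which frees the 5′ splice site for the catalytic core, went from 10.08, 9.95 and 9.99 to 9.64, 9.62 and 9.49, a change of -0.42 ± 0.08 (SE). DHX16, which makes the spliceosome ready for catalysis, changed by -0.41 ± 0.08. DHX38, needed for the later catalytic step, changed by -0.38 ± 0.08, and DHX15, which takes the spent spliceosome apart and also works in the nucleolus, by -0.42 ± 0.07. DHX15 read 11.67, 11.75 and 11.68 before and 11.36, 11.23 and 11.25 after treatment, with no overlap. DDX41 and DHX35, found in spliceosomes that have entered catalysis, changed by -0.45 ± 0.07 and -0.35 ± 0.07. DDX41 read 10.37, 10.36 and 10.38 before and 9.96, 9.90 and 9.91 after, with little spread in either group. DHX16 had a further probe set, which also read -0.41.

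DDX20 belongs to the SMN complex, which loads proteins onto small nuclear RNAs. Its arrays were close to each other, at 8.60, 8.63 and 8.62 in untreated and 8.05, 8.12 and 8.05 in treated cells, a change of -0.54 ± 0.07 (SE). Its complex partners GEMIN5, GEMIN4 and GEMIN2 changed by -0.77 ± 0.07, -0.47 ± 0.07 and -0.54 ± 0.10, all called. DDX42, a partner of the branch-site complex SF3b, was not called. It read 10.20, 10.24 and 10.20 before and 10.20, 10.03 and 10.14 after, with an interval of the change from -0.26 to 0.09.

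DDX5 and DDX17 are close paralogs that act in splicing and as partners of transcription factors. DDX17 rose from 11.20, 11.23 and 11.29 to 11.56, 11.61 and 11.46, a change of 0.31 ± 0.08 (SE, adjusted p = 0.014). The groups did not overlap, but with the array medians set equal the change was 0.23 (adjusted p = 0.0648). DDX5 went from 11.56, 11.59 and 11.56 to 11.40, 11.36 and 11.30. Its change of -0.21 ± 0.07 (SE, adjusted p = 0.0422) was barely called: leaving out any 1 of the 6 arrays ended the call (adjusted p = 0.0577 to 0.128), as did cyclic loess (-0.13, adjusted p = 0.143) and the replicate number as a block (adjusted p = 0.0719).

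The 4 pairs of close relatives were compared within each array, where a shift common to the whole array cancels. With 3 arrays a group the exact two-sided permutation test cannot go below 0.1. The log2 difference DDX21 minus DDX50 was 2.21 ± 0.02 (SD, n = 3) without LY317615 and 1.23 ± 0.12 with it, and its change was -0.98 (exact p = 0.1, 0.133 adjusted over the 4 comparisons). DDX5 minus DDX17 was 0.33 ± 0.06 before and -0.19 ± 0.05 after, and changed by -0.52 with the same exact p-values, and -0.52 also after cyclic loess. Only the change in each difference carries meaning, since different probe sets do not share a scale. For DDX19A minus DDX19B the difference was -0.19 ± 0.13 before and -0.26 ± 0.04 after, a change of -0.07 (exact p = 0.5), which does not show that they act alike. These near-identical genes may share probe signal, which was not tested.

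**Figure D4:**
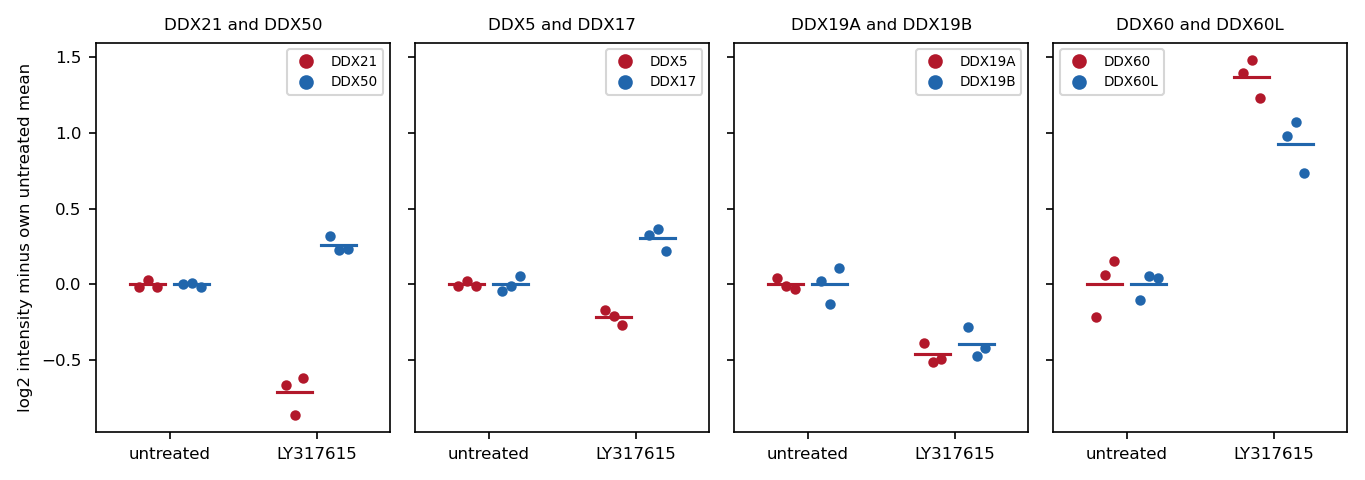
Log2 intensity minus the gene's own untreated mean (vertical axis) for 4 sets of close paralogs; points are arrays and bars are means of 3. DDX21 fell and DDX50 rose, DDX5 fell and DDX17 rose, DDX19A and DDX19B both fell, and DDX60 rose more than DDX60L.

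Among 11 helicases of mRNA export, translation and decay, 8 were lower and 1 higher, with a median of -0.32. DDX3Y is counted here, but its values are not given. With cyclic loess, 4 rather than 8 were lower and the median was -0.18. Over all genes, the share lower went from 21.4% to 17.8%. The median percentile of this role group was 88.3. Of all genes in the brightest 20%, 47.6% were lower, with a median of -0.21 before cyclic loess. The role group was not tested against that share. DDX19A and DDX19B, which release mRNA on the outer face of the nuclear pore, changed by -0.46 ± 0.07 and -0.39 ± 0.09 (SE). DDX19A read 9.32, 9.27 and 9.25 in untreated and 8.89, 8.77 and 8.79 in treated cells, and a further probe set of it changed by -0.45. DDX19B read 9.49, 9.34 and 9.58 before and 9.19, 9.00 and 9.05 after; its untreated arrays spread more widely, and the groups did not overlap. The pore factors GLE1 and NUP214, which control these helicases, also fell, by -0.36 ± 0.08 and -0.39 ± 0.08. DDX39A, a helicase that loads export factors on mRNA, went from 9.59, 9.66 and 9.58 to 9.41, 9.33 and 9.25 (adjusted p = 0.0211). That call ended after cyclic loess (-0.13, adjusted p = 0.15) and without untreated replicate 2 or 3 (adjusted p = 0.08 and 0.0548), as that of DDX19B did after cyclic loess (-0.24, adjusted p = 0.0728).

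Translation helicases went both ways. DDX3X, which helps ribosomes through structured leaders, fell from 11.37, 11.49 and 11.39 to 11.12, 10.99 and 10.97, a change of -0.39 ± 0.08 (SE, adjusted p = 0.00495). DHX29, which binds the small ribosomal subunit and aids scanning, rose from 8.32, 8.38 and 8.50 to 8.82, 8.87 and 8.85. That change of 0.45 ± 0.08 (SE, adjusted p = 0.00239) kept its call under every alternative tried. DHX36, which unwinds G-quadruplexes, went from 9.46, 9.50 and 9.46 to 9.13, 9.01 and 8.88. DHX34, a factor of nonsense-mediated decay, went from 7.32, 7.28 and 7.18 to 6.94, 6.80 and 6.90. Their changes were -0.46 ± 0.08 and -0.38 ± 0.08 (SE), and neither overlapped between groups.

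DDX6, the helicase of P-bodies that promotes decapping and represses translation, was not called. It read 11.75, 11.86 and 11.82 in untreated and 11.57, 11.67 and 11.64 in treated cells. The groups did not overlap, and the change of -0.18 had an interval from -0.35 to -0.02 (adjusted p = 0.0794). DHX9, a nuclear helicase with many partners, changed by -0.24 ± 0.08 (SE, adjusted p = 0.0477). Its call ended without treated replicate 2 or 3 or any 1 untreated array (adjusted p = 0.0714 to 0.151), with array weights (adjusted p = 0.0538), with the replicate number as a block (adjusted p = 0.071) and after cyclic loess (adjusted p = 0.311). DDX25, a testis gene, was dim, at 3.93 ± 0.03 before and 4.03 ± 0.03 after (SD, n = 3, limma adjusted p = 0.25).

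DDX60 and DDX60L are neighbouring interferon-induced genes that take part in antiviral defence. DDX60 read 7.19, 7.46 and 7.55 in untreated and 8.80, 8.88 and 8.63 in treated cells, a change of 1.37 ± 0.11 (SE, adjusted p = 7.02e-05), which ranked 20 among rises of all genes. DDX60L read 6.73, 6.89 and 6.88 before and 7.81, 7.91 and 7.57 after, a change of 0.93 ± 0.10 (adjusted p = 0.000241). The groups stood well apart in both. The rise of DDX60 exceeded that of DDX60L by 0.44 (exact permutation p = 0.1, the smallest possible with 3 arrays a group; 0.133 adjusted).

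The promoters of this pair are shown because they were the members with the largest rises and both carry the letters of an interferon response element. The sequences are from RefSeq (GRCh38.p14), minus strand, DDX60 at chr4:168318736-168318900 and DDX60L at chr4:168480473-168480632, with capitals marking GAAANNGAAA on either strand.

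DDX60: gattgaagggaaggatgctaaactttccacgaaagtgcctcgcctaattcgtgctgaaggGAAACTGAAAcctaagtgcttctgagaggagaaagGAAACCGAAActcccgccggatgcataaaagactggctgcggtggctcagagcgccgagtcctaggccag
DDX60L: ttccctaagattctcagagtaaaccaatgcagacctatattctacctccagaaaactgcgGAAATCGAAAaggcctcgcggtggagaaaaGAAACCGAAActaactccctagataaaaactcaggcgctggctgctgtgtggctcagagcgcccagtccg

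Each promoter window ran from 250 bases before to 50 bases after an annotated start. Some genes have windows at several annotated starts, and a gene was counted when any of its windows held the motif. DDX60 held the motif 88 and 53 bases before its start, and DDX60L 80 and 50 bases before. Of 45 members with a promoter entry, 3 held it, the other being DHX15, which fell. Among 14239 measured genes with an entry the share was 4.12%, and over all 35116 windows it was 3.57%. A match of letters is a description and not evidence of a bound site.

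The same windows were searched for CACGTG, an E-box that MYC and its partner MAX can bind, which reads the same on both strands. MYC itself changed by -1.32 ± 0.09 (SE, adjusted p = 3.55e-05). The motif was in 4 of 11 ribosome assembly members with an entry (DDX21, DDX31, DHX37 and DDX54), in 10 of all 45 members (22.2%) and in 10.9% of the measured genes. By call, 6 of 25 lower members held it, 0 of 7 higher members and 4 of 13 that were not called; these shares were not tested against each other. The stretches around the motif in DDX21 (chr10:68956556-68956681, plus strand) and DDX31 (chr9:132669940-132670065, minus strand), from the same source, are shown as the members that fell most among those that hold it, with the motif in capitals. Both genes also have windows at other annotated starts, which do not hold the motif.

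DDX21: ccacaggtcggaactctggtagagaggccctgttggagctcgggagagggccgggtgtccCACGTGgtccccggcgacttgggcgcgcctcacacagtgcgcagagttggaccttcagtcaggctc
DDX31: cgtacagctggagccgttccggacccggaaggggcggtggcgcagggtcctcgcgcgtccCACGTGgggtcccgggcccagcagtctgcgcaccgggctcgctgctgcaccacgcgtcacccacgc

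The mitochondrial, germline and remaining members gave 2 calls, both rises. DHX30 and DDX28, which serve the mitochondrial ribosome, were not called: DHX30 went from 8.98, 8.97 and 8.96 to 8.88, 8.81 and 8.63 (adjusted p = 0.091), and DDX28 from 6.58, 6.61 and 6.63 to 6.52, 6.44 and 6.40 (adjusted p = 0.121). Neither overlapped between groups. The germline genes DDX4, DDX43 and DDX53 were dim, between the 5.47th and 10.7th percentile. Of these DDX53 was called, at 3.81, 3.87 and 3.79 before and 4.16, 4.12 and 4.38 after treatment, a change of 0.40 ± 0.09 (SE, adjusted p = 0.00854). DDX4 read 3.86, 3.45 and 3.71 before and 3.25, 3.53 and 3.48 after, and DDX43 read 3.40, 3.30 and 3.34 before and 3.40, 3.17 and 3.70 after. Both overlapped between groups and neither was called. No detection calls were used, so whether these genes were above background is not known.

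DDX59, a gene linked to ciliary disease, rose from 6.41, 6.22 and 6.41 to 6.69, 6.89 and 6.75 (adjusted p = 0.00592). DDX1, part of the tRNA ligase complex, had a change of -0.001 with an interval from -0.17 to 0.17, reading 11.08, 11.06 and 11.10 before and 11.15, 10.99 and 11.09 after. DHX57 was not called either, with an interval from -0.16 to 0.18. DHX40 varied more between replicates, at 7.65, 7.98 and 7.69 before and 7.45, 7.59 and 7.09 after, and its change of -0.40 ± 0.14 just missed the threshold (adjusted p = 0.0506). DHX32 was dim and overlapped between groups, at 3.68, 4.02 and 3.85 before and 3.95, 4.01 and 4.09 after (adjusted p = 0.217).

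Helicases outside the DDX and DHX names, and proteins that work with DEAD-box or DEAH-box helicases, were read from lists. Not all of these proteins work with members: PDCD4 acts on the helicase eIF4A, which has no DDX or DHX name. Of 20 other RNA helicases, 9 fell and 2 rose, with a median of -0.21; after cyclic loess 6 fell and 2 rose, with a median of -0.076. MTREX, which feeds RNA to the nuclear exosome, changed by -0.52 ± 0.08 (SE), SNRNP200, the spliceosomal helicase that unwinds U4 from U6, by -0.42 ± 0.08, and the mitochondrial helicase TWNK by -1.24 ± 0.08. TWNK unwinds mitochondrial DNA and is on the list although RNA is not its main substrate. The helicases that rose were HELZ2 (0.54 ± 0.10) and MOV10 (0.37 ± 0.10).

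Many DEAH-box helicases are switched on by proteins with a G-patch domain. Of 21 measured, 10 fell and 3 rose, with a median of -0.22 (-0.085 after cyclic loess). GPKOW, the partner of DHX16, changed by -0.93 ± 0.07 (SE), and GPATCH1, the partner of DHX35, by -0.85 ± 0.08. GPATCH4, which works with DHX15 in the nucleolus, changed by -0.75 ± 0.08 and GPATCH8 by -0.61 ± 0.08. The 3 that rose were RBM10 (0.43 ± 0.08), CMTR1 (0.43 ± 0.09) and AGGF1 (0.28 ± 0.07). Of 31 partners of DEAD-box helicases, 23 fell and 0 rose in limma (EIF4B was the 1 higher gene at an unadjusted p of 0.05, and the alternatives gave 0 to 2), with a median of -0.36 (-0.24 after cyclic loess). PDCD4, an inhibitor of the helicase eIF4A, changed by -0.58 ± 0.07, NOM1 by -0.56 ± 0.07 and the export factor THOC2 by -0.60 ± 0.08. These lists, like the members, are mostly bright, with median percentiles of 82.8, 80.8 and 89.1, where falls were common over all genes. The shares lower were 45% of the other RNA helicases, 47.6% of the G-patch proteins and 74.2% of the partners. Of all genes in the brightest 20%, 47.6% were lower, with a median of -0.21. In the next 20% it was 37%, with a median of -0.14. These shares and medians of all genes were taken before cyclic loess. Before that scaling, the first 2 lists thus lay near the share of bright genes.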

How the data were processed

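The deposited table holds intensities on a linear scale for 33297 probe sets and 6 arrays. The submitters' processing notes list Affymetrix Expression Console, RMA and GCOS 1.4; the sources used here give no role or order for them, nor the step that left these intensities, as deposited, unlogged. The genome build of the array annotation was not used. Log2 was taken with no added constant (lowest value 1.95), with no filter and no further scaling. Of the probe sets, 19460 carried 1 gene symbol, 1754 several and 12083 none; checking symbols by Entrez ID changed 0 of them, and the brightest probe set stood for each gene. All 18417 genes were fitted together (limma 3.58.1, R 4.3.3, lmFit and eBayes), with Benjamini-Hochberg adjustment over all of them. Intervals are 95% limits from that model, unadjusted. The code was tested on simulated arrays with known changes. Same-numbered arrays did not deviate together (correlations of -0.02, 0.09 and 0.07), so no block was used. Members, role groups, lists and paralogs were chosen with earlier results of these data known. Values per array are given for up to 6 called members of each role with the smallest adjusted p, the 2 largest changes not called in each role and the paralogs; of the other lists, up to 4 genes with the smallest adjusted p, and MYC, are named. Values of further genes were added after they were seen. The interferon motif was added after the data were seen. Alternatives were a replicate block, leaving out each array, other variance priors, array weights, equal array medians, cyclic loess, averaging the probe sets of each gene, dropping the 30% of genes with the lowest intensity and an adjusted p of 0.01.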

Additional observations from a re-analysis of the deposited data

How the results depend on the processing

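Of the 35 called members whose values are given, 28 kept their direction and call under all 15 alternatives and DDX53 under the 14 that tested it, since leaving out the dimmest genes drops it; the others are DDX50, DDX17, DDX5, DHX9, DDX39A and DDX19B. Lower members numbered 25 (cyclic loess) to 35 (equal array medians), and higher members 5 to 7. The counts over all genes moved as well. Cyclic loess gave 3287 genes lower and 2374 higher, and equal medians 4861 and 1523. With the replicate number as a block, 28 members were lower and 7 higher, and 3836 and 2712 of all genes. Under that block, calls of DDX5 and DHX9 ended, and DHX40 was called. Equal medians left 0 ribosome assembly and 0 splicing helicases higher, as did an adjusted p of 0.01; leaving out 1 array gave 0 to 1 ribosome assembly helicases higher. After cyclic loess 4 export, translation and decay helicases were lower. Signs turned only in members that were not called: after cyclic loess DDX1 (0.099), DDX54 (0.077) and DDX42 (0.042); with equal medians DHX57 (-0.069), and with array weights DHX57 (-0.015). Leaving out 1 array gave -0.040 to 0.043 for DDX1, -0.037 to 0.041 for DHX57 and -0.059 to 0.21 for DDX43. Median changes after cyclic loess were -0.26 over all members, -0.44 for ribosome assembly and 0.002 over all genes. The cause of these shifts was not tested. Signal over background is not known for the dim members.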

Other observations

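DDX39B, which loads export factors on spliced mRNA and is the close paralog of DDX39A, was read by 3 probe sets that also name its readthrough transcript with ATP6V1G2. Their changes were 0.17 ± 0.07, 0.18 ± 0.07 and 0.18 ± 0.07 (SE), none called in a limma fit over all probe sets (adjusted p = 0.106 to 0.117). The brightest of them read 11.59, 11.62 and 11.66 in untreated and 11.86, 11.75 and 11.78 in treated cells, so that its groups did not overlap. DDX11, a DNA helicase of sister chromatid cohesion, was read by 3 probe sets shared with DDX12P and LOC642846. In the same limma fit they changed by -0.38 ± 0.12, -0.36 ± 0.11 and -0.35 ± 0.10 (adjusted p = 0.0517, 0.0473 and 0.0487). That fit gave the brightest probe set of DHX16 an adjusted p of 0.0147, against 0.0052 in the fit over genes. Its adjusted p-values are thus not on the scale of those of the members. DDX47, a nucleolar helicase, shares its probe set with APOLD1; that probe set changed by -0.13 ± 0.07 (adjusted p = 0.247).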
